A study of Mus musculus with 7 samples.

Results

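The Dlk1-Dio3 region of mouse chromosome 12 encodes a long series of imprinted microRNAs. The results below concern 31 mature miRNAs of 16 hairpins in its upstream part, from miR-770 in Meg3 to miR-370 in Rian. They were chosen by name and position, not by a measured value, though with earlier results of these data known. Both expression tables hold all 31 among 1908 mature miRNA rows. Small RNAs of cells sorted from spinal tissue of mouse embryos were sequenced in 7 libraries. At E10.5 (E, embryonic day), GFP-positive cells (spinal motoneurons) and GFP-negative cells (the other cells of the sort, of mixed types) of Hb9::gfp embryos gave 2 libraries each. At E12.5 there was 1 library each of Hb9::gfp GFP-positive motoneurons, of tdTomato-positive V2a interneurons (Chx10::cre;Rosa26::LSL::tdTomato) and of tdTomato-positive V3 interneurons (Sim1::cre;Rosa26::LSL::tdTomato). Hb9 promoter activity defines the motoneuron sort, and a Cre-dependent reporter marks every cell with a history of Cre, also where the driver gene is off again. A GFP-negative population of E12.5 was not analysed here, and no transgene is shared by all groups.

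In the Dlk1-Dio3 region, protein-coding genes such as Dlk1 and the retrotransposon-derived Rtl1 are expressed from the paternal chromosome, and the long noncoding RNAs Meg3, Rtl1 antisense, Rian and Mirg from the maternal one. Apart from those of Mir3071, which lies on the strand of Rtl1, the miRNAs are thought to be cut from those maternal transcripts. Hairpins in Rtl1 antisense lie opposite the Rtl1 coding sequence, so their miRNAs are fully complementary to the paternal Rtl1 transcript and can direct its cleavage. The locus is highly active in the embryo, the placenta and the brain, and miR-431 has been tied to axon regeneration in sensory neurons.

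All 31 members matched a mature sequence in RefSeq (GRCm38.p6). The ones below carry the results: the members that passed the test at E10.5, the most abundant ones, and the 5p arm of miR-673, which differed most between E12.5 populations among members above 50 TPM. Each is written 5′ to 3′, and the capitals mark the seed, bases 2 to 8, with which a miRNA pairs to most of its targets.
mmu-miR-770-3p: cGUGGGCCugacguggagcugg
mmu-miR-673-5p: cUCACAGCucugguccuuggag
mmu-miR-493-3p: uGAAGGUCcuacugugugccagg
mmu-miR-540-3p: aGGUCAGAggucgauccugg
mmu-miR-665-3p: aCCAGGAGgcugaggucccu
mmu-miR-431-5p: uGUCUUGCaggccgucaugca
mmu-miR-433-3p: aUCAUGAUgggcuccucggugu
mmu-miR-127-5p: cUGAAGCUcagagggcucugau
mmu-miR-127-3p: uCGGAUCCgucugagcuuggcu
mmu-miR-434-5p: gCUCGACUcaugguuugaacca
mmu-miR-434-3p: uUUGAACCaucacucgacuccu
mmu-miR-3071-5p: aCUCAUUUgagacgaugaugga
mmu-miR-136-3p: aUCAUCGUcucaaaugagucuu
mmu-miR-341-3p: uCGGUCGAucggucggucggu
mmu-miR-1188-5p: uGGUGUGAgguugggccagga
mmu-miR-370-3p: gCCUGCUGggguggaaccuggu

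Although they come from neighbouring hairpins, no pair of members shared a seed, and the seeds of 28 of the 31 were found in no other mouse miRNA of the 1679 names in the RefSeq table. The 3 exceptions each matched 1 miRNA outside the members: miR-673-5p shared its seed with miR-6985-3p, miR-540-3p with miR-6915-5p, and miR-370-5p with miR-1193-3p. Of the members, 12 began with U, against 40.9% of all mouse mature miRNAs. Their median GC content was 56.5%, against 52.2% over all.

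On GRCm38, Mir770 lay in an exon of Meg3 on the same strand (chr12:109563692-109563785). Mir673, Mir493, Mir337, Mir540 and Mir665 followed between 31.0 and 45.3 kb after the start of Meg3, in no annotated gene of GENCODE vM21. Mir431, Mir433, Mir127, Mir434, Mir432 and Mir136 were all on the plus strand opposite the Rtl1 exon, from Mir431 at chr12:109590447-109590537 to Mir136 at chr12:109595327-109595388. Mir3071 (chr12:109595318-109595397) covered Mir136 on the other strand, which is the strand of Rtl1. Mir341, Mir1188 and Mir370 were in introns of Rian, and Mir370 (chr12:109618258-109618336) lay farthest along, 77.3 kb from the start of Meg3. Opposite-strand hairpins give miRNAs that are near-complements of each other: miR-3071-3p and miR-136-5p overlapped by 20 nt, and miR-3071-5p and miR-136-3p by 19 nt. The E10.5 table placed 4 members (miR-337-5p, miR-337-3p, miR-3071-3p and miR-136-5p) in bundles with an opposite-strand miRNA, so their values are uncertain, and whether counting used the strand is not given in the sources used here.

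Depth was 493254 to 802888 reads at E10.5 and 3603269 to 4605087 reads at E12.5. E10.5 levels are RPM (reads of a miRNA, with each library scaled to 1000000), and E12.5 levels are TPM, computed from values per length. The motoneuron label was checked with miR-218-5p, which is enriched in motoneurons: it stood at 6623 and 7315 RPM in GFP-negative cells and at 177885 and 200305 RPM in motoneurons, and at E12.5 at 104198 TPM in the motoneuron library, 7558 TPM in the V2a library and 7282 TPM in the V3 library. The sort fractions also differed in other cell types. A list of 10 mesenchymal and smooth muscle miRNAs, none at 0 in all libraries, summed to 81413 and 94290 RPM in GFP-negative cells and to 1571 and 424 RPM in motoneurons. The 4 skeletal muscle miRNAs summed to 4192 and 3796 against 355 and 130 RPM, and the 3 sensory neuron miRNAs to 9171 and 9535 against 1971 and 2325 RPM. The mesenchymal list came to 199 TPM in E12.5 motoneurons, 249 TPM in V2a and 310 TPM in V3 cells. A list of 5 neuronal miRNAs came to 87002, 85462 and 166561 TPM in the same order, highest in V3 cells, and 2 endothelial miRNAs to 177, 405 and 174 TPM. At E10.5 the neuronal list summed to 26362 and 22230 RPM in GFP-negative cells and to 27788 and 34511 RPM in motoneurons. The part of these cell types in the differences at either stage was not tested. In sorted bulk populations, fewer cells of a type and less RNA per cell cannot be told apart. Whether the replicates of a group are separate embryos or sorts is not stated in the labels, so each p-value reflects only the spread of 2 libraries a group and that spread can be technical.

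At E10.5, most of the tested members stood lower in motoneurons than in GFP-negative cells, whereas miR-770-3p, the arm cut from a Meg3 exon, was higher and miR-370-3p, the most abundant member, did not pass the test. Of the 31 members, 24 had at least 15.2 RPM (10 reads at the median depth) in 2 or more libraries and entered the fit. A limma fit on log2(RPM + 1) over all 492 miRNAs that passed this filter, with Benjamini-Hochberg adjustment over them, called 11 members lower and 1 higher at an adjusted p under 0.05, and 12 were not called. In the same fit, 30.7% of all tested miRNAs were lower in motoneurons and 11.6% were higher. Both motoneuron libraries were below both GFP-negative libraries for 18 of the 24 members, against 48.6% of all tested miRNAs. Without adjustment, 62.5% of the tested members had a p under 0.05 in the limma fit, in either direction, near the 52.6% of all tested miRNAs. Fold changes were below 0 for 20 of the 24 members (83.3%) and for 63.6% of all. The median log2 fold change of the members was -0.83, and that of all tested miRNAs was -0.34. These figures for the tested members include miR-337-5p, which passed the filter only through the GFP-negative libraries.

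The zero of these fold changes depends on the scaling of the libraries. The median over all tested miRNAs moved from -0.34 to -0.07 with a median of ratios and to 0.03 with totals that leave out the 5 most abundant miRNAs. It was -0.47 with totals that leave out the mesenchymal and muscle lists. The median of the members minus that of all tested miRNAs was -0.49 with the original totals and -0.49, -0.49 and -0.50 under these 3 scalings, but -0.31 without motoneuron replicate 1. With a median of ratios 7 of the 24 members were called lower, beside 118 of all 492 tested miRNAs. Without the 5 most abundant miRNAs in the totals these numbers were 6 of 24 and 115 of 492, so the shares lay close together. In each fit the fold changes are on the log2(RPM + 1) scale, which understates the change of low miRNAs.

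**Figure D1:**
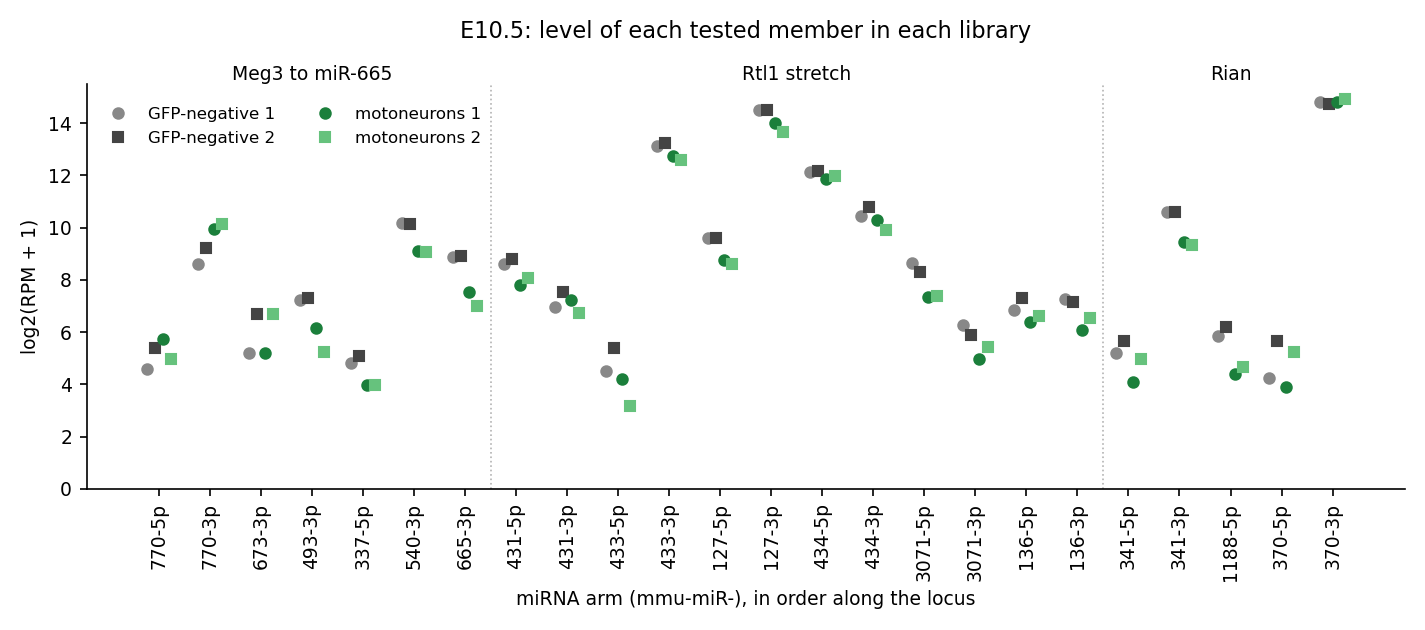
Levels of the 24 tested members at E10.5, as log2(RPM + 1), for each of the 2 GFP-negative (grey and black) and 2 motoneuron (green) libraries, in order along the locus. For miR-770-3p both motoneuron points sit above both GFP-negative points, and for 18 members both sit below.

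In Meg3 and the stretch up to Mir665, 7 of 12 members were tested, with 1 higher and 3 lower. The share lower was 42.9%, against 30.7% of all tested miRNAs, and 11.6% of all were higher. In the limma fit 71.4% of the 7 had an unadjusted p under 0.05, against 52.6% of all. miR-770-3p had 394 and 592 RPM in GFP-negative cells and 998 and 1113 RPM in motoneurons. The groups did not overlap, and the GFP-negative libraries also differed from each other. Its fold change was 2.18 (log2 1.12, SE 0.24, limma adjusted p = 0.00978), and relative to the median of all tested miRNAs it was 1.46 on the log2 scale. It was called higher under 11 of 12 alternatives and was lost without motoneuron replicate 2 (limma adjusted p = 0.0627). The other arm of the same hairpin, miR-770-5p, had 23.2 and 40.8 RPM against 52.3 and 30.4 RPM, and the groups overlapped.

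The 3 members that were lower in this stretch were all 3p arms of hairpins outside annotated genes. miR-665-3p fell from 472 and 475 RPM in GFP-negative cells to 186 and 126 RPM in motoneurons (a log2 change of -1.63, SE 0.26, limma adjusted p = 0.00346). It had the most negative fold change of the tested members. miR-493-3p stood at 150 and 156 RPM against 69.8 and 36.5 RPM (a log2 change of -1.58, SE 0.37, limma adjusted p = 0.0146). The last of them, miR-540-3p, went from 1158 and 1131 RPM to 546 and 541 RPM (a log2 change of -1.07, SE 0.17, limma adjusted p = 0.00348). All 3 had separate groups, and all 3 kept their call under the 12 alternatives. miR-673-3p did not separate the groups, with 36.0 and 102.1 RPM against 36.1 and 103 RPM: the libraries numbered 1 were low and those numbered 2 were high in both fractions.

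In the Rtl1 stretch, 12 of 13 members were tested, with a median log2 fold change of -0.73. In the limma fit 6 of them (50%) were lower and none was higher, against 30.7% and 11.6% of all tested miRNAs. In that fit 8 had an unadjusted p under 0.05, or 66.7% against 52.6% of all. All 12 fold changes were below 0 with the original totals, as were 63.6% of all, but miR-434-5p was above 0 with a median of ratios, and miR-431-3p and miR-434-5p were above 0 without the 5 most abundant miRNAs. miR-127-3p, the second most abundant member, had 23439 and 23110 RPM in GFP-negative cells and 16447 and 12779 RPM in motoneurons (a log2 change of -0.68, SE 0.16, limma adjusted p = 0.0151). The minor arm of that hairpin, miR-127-5p, went from 770.4 and 770.5 RPM to 433.5 and 385.2 RPM (a log2 change of -0.91, SE 0.19, limma adjusted p = 0.00863). Both arms of Mir127 thus stood lower, each with groups that did not overlap.

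miR-433-3p, the third most abundant member, had 8931 and 9663 RPM against 6749 and 6149 RPM (a log2 change of -0.53, SE 0.14, limma adjusted p = 0.0252). miR-431-5p had 392.3 and 445.6 RPM against 219 and 268 RPM (a log2 change of -0.78, SE 0.23, limma adjusted p = 0.0297). For both, each motoneuron library was below each GFP-negative library, but the calls were less stable. miR-433-3p and miR-431-5p were each called lower in 6 of 12 alternatives, miR-127-3p in 8 and miR-127-5p in 11. With a median of ratios or without the 5 most abundant miRNAs, miR-433-3p, miR-431-5p and miR-127-3p were not called, with adjusted p over all their alternatives of up to 0.433, 0.185 and 0.172. miR-127-5p was lost only without the 5 most abundant miRNAs (limma adjusted p = 0.0562).

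Mir434 gave abundant reads from both arms. miR-434-5p had 4462 and 4563 RPM against 3701 and 4006 RPM (a log2 change of -0.23, limma adjusted p = 0.246), and miR-434-3p had 1399 and 1747 RPM against 1246 and 949 RPM (a log2 change of -0.52, limma adjusted p = 0.0868). Neither arm was called, although neither overlapped between the groups. At the end of the Rtl1 stretch, the hairpins Mir136 and Mir3071, which lie opposite each other, each had 1 arm called lower. miR-3071-5p fell from 397 and 317 RPM to 163 and 164 RPM (a log2 change of -1.11, SE 0.24, limma adjusted p = 0.00931), and it was called in all 12 alternatives. miR-136-3p, which overlaps it by 19 nt on the other strand, had 152 and 143 RPM against 67.3 and 91.2 RPM (a log2 change of -0.90, SE 0.29, limma adjusted p = 0.0448). That call was made in 6 of 12 alternatives, and the highest adjusted p among them was 0.196.

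In Rian, 5 of 6 members were tested and 2 were lower. That is 40%, against 30.7% of all tested miRNAs. The share with an unadjusted p under 0.05 in the limma fit was also 40%, below the 52.6% of all. miR-341-3p went from 1567 and 1552 RPM in GFP-negative cells to 701 and 639 RPM in motoneurons (a log2 change of -1.22, SE 0.17, limma adjusted p = 0.00186), the smallest adjusted p among the members. miR-1188-5p, from the next hairpin, had 56.6 and 72.4 RPM against 19.9 and 24.3 RPM (a log2 change of -1.50, SE 0.36, limma adjusted p = 0.0153). The groups were separate for both, and miR-341-3p kept its call in all 12 alternatives. For miR-1188-5p, which rested on 12 to 44 reads a library, the call was lost without GFP-negative replicate 2 and without motoneuron replicate 1, with adjusted p of up to 0.108.

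miR-370-3p, reported to target the fatty acid oxidation enzyme gene Cpt1a, was not called. It had 28829 and 27428 RPM in GFP-negative cells and 28693 and 30724 RPM in motoneurons, a mean of 28129 ± 990 (SD, n = 2) against 29708 ± 1436 RPM (SD, n = 2). The groups overlapped. The log2 fold change was 0.08 (SE 0.13, limma adjusted p = 0.671), which lay 0.42 above the median of all tested miRNAs. Without the 5 most abundant miRNAs in the totals the log2 fold change was 0.46 and the call became higher (limma adjusted p = 0.0329), and without the mesenchymal and muscle lists it was -0.059.

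**Figure D2:**
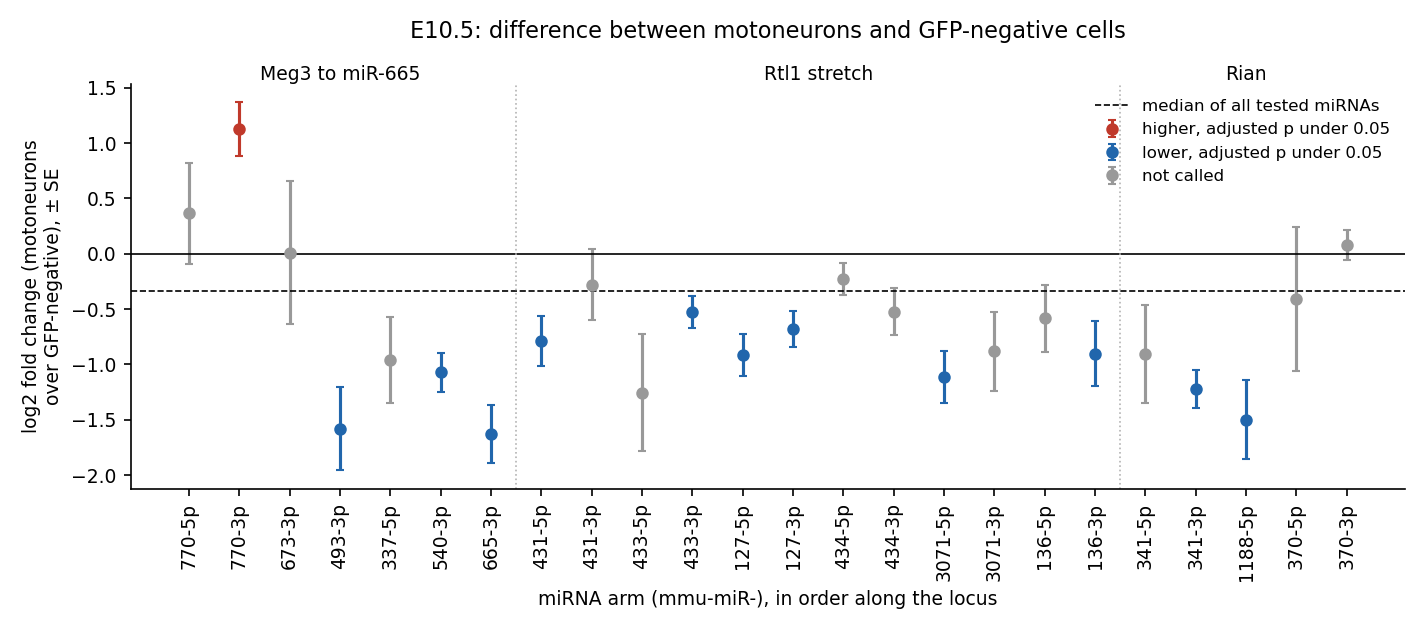
Log2 fold change (motoneurons over GFP-negative cells, ± SE) of the 24 tested members in order along the locus, with calls at a limma adjusted p under 0.05 in colour and the median of all 492 tested miRNAs as a dashed line at -0.34. The single red point is miR-770-3p at 1.12, the 11 blue points run from -0.53 to -1.63, and miR-370-3p sits at 0.08.

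None of the other 7 tested members was called, and their log2 fold changes ranged from -1.25 (miR-433-5p) to -0.28 (miR-431-3p). Among them, miR-337-5p passed the filter only through the GFP-negative libraries, which by itself favours a lower value in motoneurons. The 7 members that did not pass the filter were miR-673-5p, miR-493-5p, miR-337-3p, miR-540-5p, miR-665-5p, miR-432 and miR-1188-3p. For miR-432 there was 1 read in 1 of the 4 libraries.

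The same locus continues into Mirg, which holds the miR-379 to miR-410 hairpins. Of the 78 mature miRNAs of those hairpins 51 were tested, 25 were lower and none was higher in the limma fit (32, or 62.7%, had an unadjusted p under 0.05 in either direction, against 52.6% of all), and their median log2 fold change of -0.84 lay beside the -0.83 of the members. The share called lower was 49.0% there and 45.8% among the tested members, against 30.7% of all tested miRNAs. No test compared both lists, and they share the 4 libraries.

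As a share of each library, the 31 members made up 7.31% and 7.29% of GFP-negative RPM and 6.07% and 5.85% of motoneuron RPM. That order turned round with totals that leave out the 5 most abundant miRNAs, where the group means were 10.8% and 11.4%. The Rtl1 stretch differed most with the original totals, with 4.07% ± 0.07 (SD, n = 2) in GFP-negative cells and 2.72% ± 0.30 (SD, n = 2) in motoneurons. The Rian members summed to 2.98% ± 0.10 (SD, n = 2) and 3.05% ± 0.14 (SD, n = 2). Without the 5 most abundant miRNAs in the totals, the Rian members differed most, and in the other direction, with means of 4.41% in GFP-negative cells and 5.85% in motoneurons, against 6.02% and 5.21% for the Rtl1 stretch. Those from Meg3 to Mir665 were a small part, with 0.243% ± 0.020 (SD, n = 2) and 0.194% ± 0.005 (SD, n = 2). Just 3 members (miR-370-3p, miR-127-3p and miR-433-3p) held 82.5% to 85.5% of the members' reads at E10.5.

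At E12.5 motoneurons were compared with other neurons instead of with GFP-negative cells of mixed types, and there the members stood higher in motoneurons more often than lower. With 1 library a population there is no test, so these values describe 3 libraries, and intervals cover counting error only. Of the members, 23 reached 10 TPM in at least 1 population, among 523 miRNAs. Against V2a cells, 6 of the 23 were at least 2-fold higher in motoneurons and 2 were at least 2-fold lower, on TPM + 1, where 14.5% and 21.8% of all miRNAs considered were. The 6 that were higher were miR-433-3p and miR-434-3p, the most abundant of them, and miR-673-5p, miR-127-5p, miR-1188-5p and miR-665-3p, at 114, 34.6, 17.7 and 14.6 TPM there. The 2 that were lower were miR-770-5p (7.88 TPM in motoneurons, 17.6 in V2a) and miR-540-5p (17.8 TPM in motoneurons, 37.9 in V2a). Against V3 cells 10 were at least 2-fold higher in motoneurons and none was lower (26.4% and 12.4% of all). Between the interneurons, 4 (miR-540-5p, miR-665-3p, miR-3071-3p and miR-341-5p) were at least 2-fold higher in V2a than in V3 cells and none was lower (26.0% and 7.27% of all). With a median of ratios, the members at least 2-fold higher in motoneurons numbered 10 over V2a and 6 over V3 cells, with 0 lower in either. V2a over V3 cells had 1 higher and 1 lower. The shares of all miRNAs past 2-fold were not computed with that scaling, so those given above do not apply to these counts.

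The median log2 ratio of the 23 members was 0.57 for motoneurons over V2a cells (-0.16 over all 523) and 0.77 for motoneurons over V3 cells (0.25 over all). For V2a over V3 cells it was 0.34, below the 0.48 of all miRNAs considered, and it changed sign to -0.15 with a median of ratios (0.00 over all). The motoneuron medians kept their sign with that scaling, at 0.82 and 0.53, against 0.08 and 0.01 over all. Motoneurons had the highest TPM for 17 of the 23 members and V2a cells for 6, whereas over all 523 miRNAs motoneurons were highest for 37.1% and V2a cells for 47.0%. V3 cells were highest for none of the 23 members and for 15.9% of all. With a median of ratios, motoneurons were highest for 15 members, V2a cells for 2 and V3 cells for 6, against 40.0%, 29.6% and 30.4% of all. The miR-379 to miR-410 list had 9 of 43 at least 2-fold higher and 1 lower in motoneurons against V2a cells, and 19 higher and 1 lower against V3 cells.

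**Figure D3:**
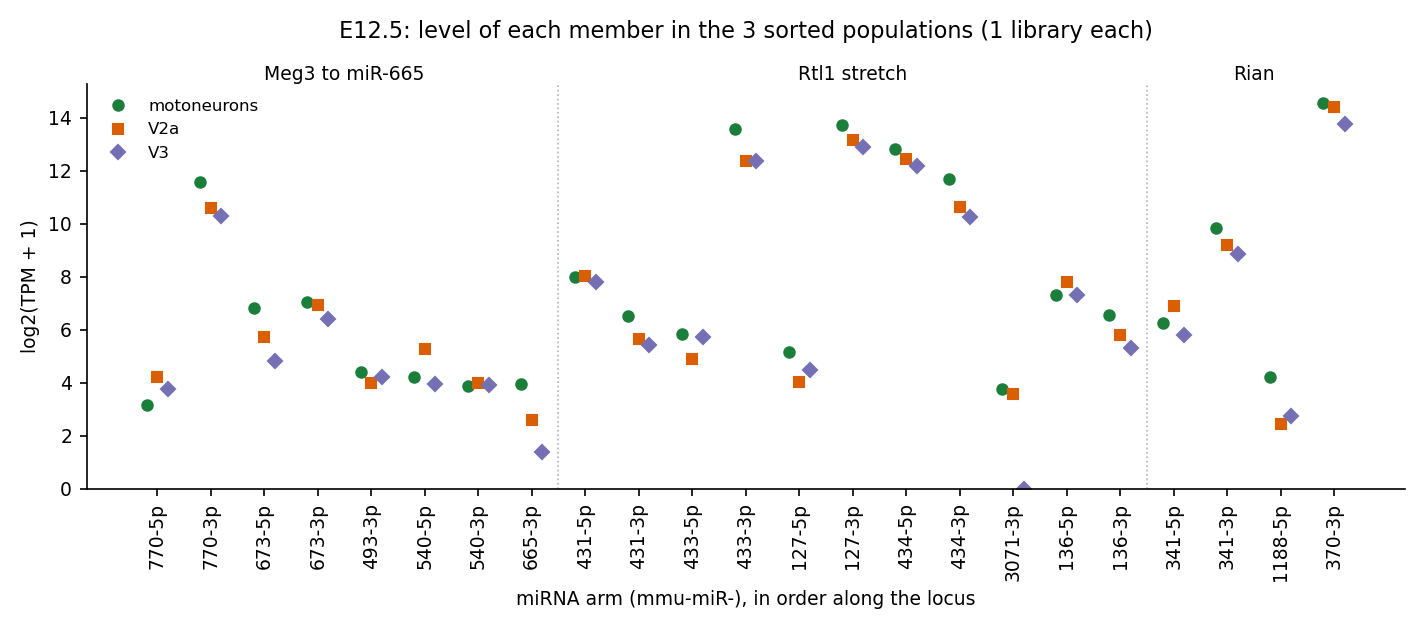
Levels of the 23 members considered at E12.5, as log2(TPM + 1), in motoneurons (green circles), V2a cells (orange squares) and V3 cells (violet diamonds), 1 library each, in order along the locus. The green circle is highest for 17 of the 23 members (15 with a median of ratios), and miR-3071-3p in V3 cells lies at 0.

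Each of the 5 most abundant members at E12.5 stood highest in motoneurons with the original totals and with a median of ratios. Ratios of single members were not computed with totals that leave out the 5 most abundant miRNAs. There the Rian members, mostly miR-370-3p, summed to 4.61%, 6.49% and 4.80% in motoneurons, V2a and V3 cells, with motoneurons lowest. The Rtl1 stretch summed to 6.87%, 6.45% and 6.39%. miR-370-3p had 24028, 21807 and 14082 TPM in motoneurons, V2a and V3 cells, a ratio of 1.10 (95% counting interval 1.09 to 1.11) over V2a and of 1.71 (1.69 to 1.72) over V3. miR-127-3p had 13758, 9261 and 7750 TPM, or 1.49-fold and 1.78-fold higher in motoneurons than in V2a and V3 cells. miR-433-3p had 12206, 5261 and 5320 TPM, or 2.32-fold and 2.29-fold. V2a stood above V3 cells for miR-370-3p under both scalings, whereas for miR-127-3p that order turned round with a median of ratios (from 1.19 to 0.849) and for miR-433-3p the ratio moved from 0.989 to 0.703.

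Both arms of Mir434 were highest in motoneurons with the original totals and with a median of ratios. miR-434-5p had 7347, 5618 and 4610 TPM in motoneurons, V2a and V3 cells, and miR-434-3p had 3308, 1579 and 1220 TPM. The 3p arm was 2.09-fold (95% counting interval 2.03 to 2.16) and 2.71-fold (2.62 to 2.80) higher in motoneurons, the 5p arm 1.31-fold and 1.59-fold. miR-136-3p also stood highest in motoneurons, with 92.9, 54.7 and 39.2 TPM, but miR-136-5p was highest in V2a cells, with 160, 222 and 158 TPM (at E10.5 it had 114 and 159 RPM in GFP-negative cells against 83.0 and 96.2 RPM). miR-431-5p differed little, with 257, 258 and 222 TPM.

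Of the Meg3 side, miR-770-3p had 3097, 1551 and 1252 TPM in motoneurons, V2a and V3 cells, and was 1.997-fold (95% counting interval 1.94 to 2.06) and 2.47-fold (2.39 to 2.56) higher in motoneurons. Its highest levels were thus in motoneurons at both stages. miR-673-5p had 114, 52.5 and 27.6 TPM and stood 4.12-fold (3.33 to 5.10) higher in motoneurons than in V3 cells. The other arm, miR-673-3p, had 132, 121 and 83.9 TPM. miR-341-3p, of Rian, had 928, 581 and 459 TPM, and its other arm, miR-341-5p, had 75.2, 118 and 55.7 TPM with V2a cells highest. miR-1188-5p, low in motoneurons at E10.5, had 17.7, 4.43 and 5.78 TPM at E12.5, a ratio of 3.995 (95% counting interval 2.35 to 7.09) over V2a and 3.06 (1.86 to 5.18) over V3 cells. miR-493-3p had 20.46, 14.85 and 17.71 TPM. With a median of ratios, the motoneuron-over-V2a and motoneuron-over-V3 ratios of the members named with their values at E12.5 so far kept their direction, except for miR-431-5p, for miR-493-3p over V3 cells (from 1.16 to 0.979) and for miR-136-5p over V3 cells (from 1.01 to 0.856). The ratio of miR-431-5p over V2a cells turned from 0.99 to 1.18, and over V3 cells from 1.16 to 0.98.

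Read shares gave the same order for the whole set only with the original totals. The 31 members summed to 6.58%, 4.67% and 3.55% of TPM in motoneurons, V2a and V3 cells. With totals that leave out the 5 most abundant miRNAs of that table the sums were 12.1%, 13.5% and 11.7%, so V2a cells then stood above motoneurons. With the original totals the Rtl1 stretch summed to 3.73%, 2.24% and 1.94%, and the Rian members to 2.51%, 2.25% and 1.46%. Those from Meg3 to Mir665 summed to 0.344%, 0.182% and 0.143%. Without the 5 most abundant miRNAs in the totals, the Rian members summed to 4.61%, 6.49% and 4.80%, with motoneurons lowest. The Rtl1 stretch then summed to 6.87%, 6.45% and 6.39%, and those from Meg3 to Mir665 to 0.633%, 0.524% and 0.470%. The same 3 members as at E10.5 held 76.0% to 77.8% of the members' total.

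A hairpin gives a 5p and a 3p arm, of which usually 1 is kept in the silencing complex. The ratio of the arms within a library does not depend on the scaling. At E10.5, a limma fit on log2((5p RPM + 1)/(3p RPM + 1)) over 117 hairpins called 2.56% of them, and none of the 9 member hairpins tested was called or had an unadjusted p under 0.05 (19 of all 117 did). Under each alternative run, 0 member hairpins were called. Mir433, Mir127 and Mir370 were read almost entirely from the 3p arm, with 5p shares under 3.3% in each library, while Mir434 and Mir431 gave mostly 5p reads. The 5p share of Mir434 was 76.1% and 72.3% in GFP-negative cells and 74.8% and 80.9% in motoneurons, so replicates of 1 group differed by more than their counting intervals.

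At E12.5 the arms were compared between populations by their shares of reads. That comparison was chosen after the values were seen: hairpins with at least 100 reads over both arms in each library, 142 in all, of which 10 were member hairpins. In motoneurons the 5p share was lower than in both V2a and V3 cells, with 95% Wilson intervals apart, for 5 of these 10, against 12.7% of all 142. It was higher for 2 (Mir370 and Mir673), against 9.15% of all. These intervals cover counting error only, and there are no replicates. For Mir370 the 5p arm had 14, 1 and 0 reads in motoneurons, V2a and V3 cells, or 0.016%, 0.001% and 0%, near the floor. In the 2 GFP-negative libraries of E10.5 that share was 0.062% and 0.182%.

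Mir434 had a 5p share of 69.0% (68.5% to 69.4%) in motoneurons, 78.1% (77.6% to 78.5%) in V2a and 79.1% (78.6% to 79.6%) in V3 cells. Mir431 had 72.9% (70.3% to 75.3%) in motoneurons, 83.2% in V2a and 83.4% in V3 cells. For Mir434 the gap between motoneurons and either interneuron population was larger than that between the E10.5 motoneuron replicates, and for Mir431, with 59.9% and 71.7% in those replicates, it was smaller. Mir136 had 63.2%, 80.2% and 80.1%, where the 5p arm shares a bundle with miR-3071-3p and is uncertain. Mir341 had 7.49%, 16.9% and 10.8%, and Mir770 0.254%, 1.12% and 1.01%. Mir673 went the other way, with 45.2% (42.0% to 48.5%) in motoneurons, 29.4% in V2a and 24.0% in V3 cells.

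**Figure D4:**
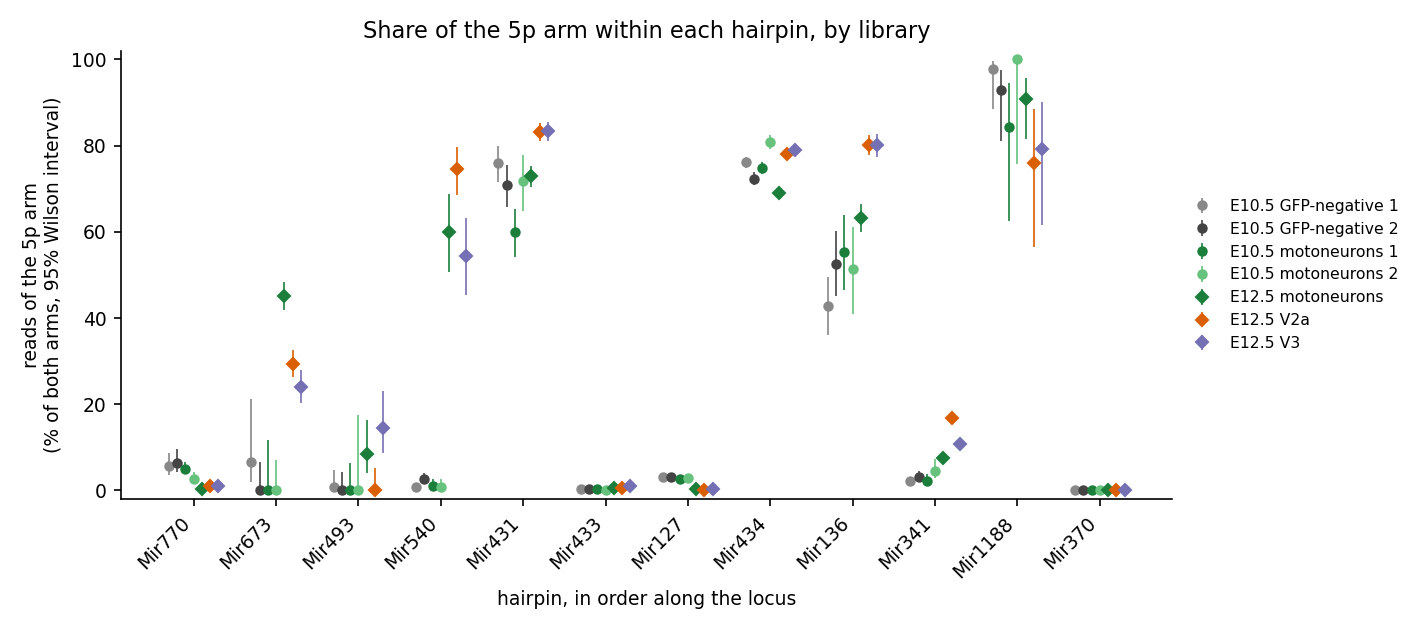
Share of the 5p arm among the reads of both arms (%), with 95% Wilson intervals, for 12 of the 16 hairpins (without Mir337, Mir665, Mir432 and Mir3071) in each of the 7 libraries (circles E10.5, diamonds E12.5). At E12.5 motoneurons (dark green diamonds) lie below V2a and V3 cells for Mir431, Mir434, Mir136 and Mir341 and above them for Mir673, and Mir540 is near 0 at E10.5 and above 54% at E12.5.

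Both tables were scaled separately, so stage and table cannot be told apart, and values at E10.5 and E12.5 are only set side by side here. The leading members had the same ranks at both stages: miR-370-3p, miR-127-3p, miR-433-3p, miR-434-5p and miR-434-3p were the first to the fifth among the 31 by the mean over a table's libraries. In single libraries the order could differ: miR-770-3p stood above miR-434-3p in V3 cells and in motoneuron replicate 2 of E10.5. The ranks below are of the same means. Mature lengths of 19 to 26 nt enter TPM but not RPM. Several others stood far apart. miR-540-3p was rank 7 of the members at E10.5 and rank 19 at E12.5, with 13.6, 14.9 and 14.0 TPM in motoneurons, V2a and V3 cells. Its hairpin had a 5p share of 0.743% to 2.56% at E10.5 and of 54.3% to 74.5% at E12.5.

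miR-665-3p went from rank 11 to rank 23, with 14.6, 5.09 and 1.59 TPM at E12.5, and miR-127-5p from rank 9 to rank 16, with 34.6, 15.3 and 21.4 TPM. miR-3071-5p went from rank 12 to rank 28: it had 81 to 309 reads in each E10.5 library, but at E12.5 it was listed at 0 in motoneurons and V3 cells and had 4.48 TPM (20 reads) in V2a cells. A count of 0 there allows up to 0.844 TPM in motoneurons and 0.721 TPM in V3 cells, the level of 3 reads. miR-673-5p moved the other way, from rank 29, with 2 reads in 1 library and none in the other 3 at E10.5, to rank 12.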

How the data were processed

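Small RNAs of 5 sorted mouse cell populations, in 7 libraries, were analysed as 2 tables. The E10.5 table holds RPM per mature miRNA, as the authors deposited it, and each library sums to 1000000. The E12.5 table names no unit. Its deposited values were read as FPKM because, multiplied by the RefSeq mature length, most low values fall on steps of 1 read. Within 0.1 read, 78.2% to 83.0% of low values did so in the E12.5 libraries. Read counts, depths and counting intervals of that table are therefore approximate. Its values were rescaled to TPM from the deposited values. The submitters' processing notes name Bowtie2, and the counting program, genome build and annotation were not given in the sources used here. Depth was taken from the size of the step of 1 read. All columns matched a sample. Motoneurons and GFP-negative cells of E10.5 were compared with limma 3.58.1 (R 4.3.3) on log2(RPM + 1), with a mean-variance trend, two-sided, over miRNAs with at least 15.2 RPM in 2 libraries, at a Benjamini-Hochberg adjusted p under 0.05; the procedure was tested on simulated data. E12.5 has 1 library a group, so ratios on TPM + 1 carry no test. Alternatives covered pseudocounts, filters, scaling, the variance trend, a replicate block and each replicate left out. Values in every library are given for members called at E10.5, the 10 highest members at each stage, and members at least 4-fold apart at E12.5 with 50 TPM or more. Members and lists were chosen with earlier results of these data known. Python 3.11.15 was used for the rest.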

Additional observations from a re-analysis of the deposited data

How the results depend on the processing

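Over single members and hairpins, 323 of the alternative values kept their direction and their side of the threshold, 26 lost a call, 4 gained one and 14 changed sign. With only all-zero rows removed, 34 miRNAs were higher in motoneurons at E10.5, and 105 were with totals without the 5 most abundant miRNAs; leaving out each replicate in turn gave 27 to 48. Without the 5 most abundant miRNAs, 2 of 24 members were called higher and 6 lower, beside 105 and 115 of all 492. With a median of ratios 7 members were called lower, beside 118 of all 492. When a replicate was left out, the median of the members minus that of all ranged from -0.54 to -0.31. Over all hairpins, arm usage was called for 1 with a filter on at least 1 arm, 0 without a variance trend, 7 with the replicate block and 0 to 0 when a replicate was left out.

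The log2 fold changes that changed sign had not been called. When a replicate was left out, miR-770-5p ranged from -0.032 to 0.76, miR-673-3p from -0.73 to 0.76 and miR-370-5p from -1.12 to 0.30, and the arm ratios of Mir341 and Mir370 ranged from -0.19 to 0.82 and from -1.24 to 0.26. Without the mesenchymal and muscle lists miR-673-3p was -0.12 and miR-370-3p was -0.059. Without the 5 most abundant miRNAs miR-431-3p was 0.094 and miR-434-5p was 0.15, and with a median of ratios miR-434-5p was 0.048. The causes were not tested.

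At E12.5 the members at least 2-fold higher in motoneurons than in V2a cells numbered 2 with a pseudocount of 10, 10 with a median of ratios and 3 at 50 TPM or more, with 0 past 4-fold, and 0 were lower under each of these. Against V3 cells 3 were higher past 4-fold and 6 with a median of ratios. For V2a over V3 cells 1 was higher under each of the 4 alternatives, and 1 was lower with a median of ratios. The shares of all miRNAs were not computed under these E12.5 alternatives. Summed shares without the 5 most abundant miRNAs were 10.8% (GFP-negative) and 11.4% (motoneurons) at E10.5 and 12.1%, 13.5% and 11.7% in motoneurons, V2a and V3 cells at E12.5.

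The E10.5 libraries numbered 1 deviated from their group means together, with a correlation of 0.26. With 2 libraries a group, those numbered 2 give the same value by construction. The labels do not say whether a number marks a shared litter, batch or day. With the replicate block 1 member was higher and 11 were lower, as without it, and 67 and 162 of all miRNAs were. The count-based test listed as an alternative was not run, because it was set to depend on whole reads for nearly all rows: at E10.5, low values were whole reads (within 0.1 read) for 97.5% to 100% of rows in bundles of their own and for 90.2% to 92.9% of all rows. The 7 members under the filter enter only the fit with all-zero rows removed. There 8 of 31 members were lower and 1 was higher, beside 126 and 34 of all 1270 miRNAs in that fit. Differences at E12.5 have no replicates.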
